A study of Lotus japonicus with 18 samples.

Results

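Chalcone synthase is the enzyme that opens the flavonoid pathway. It joins p-coumaroyl-CoA with malonyl-CoA units to form naringenin chalcone, the precursor of flavonols, anthocyanins and tannins. In legumes a chalcone reductase, also called 6'-deoxychalcone synthase, works beside it, and the resulting deoxychalcone feeds the isoflavonoid phytoalexins. Legume genomes hold chalcone synthase as a family of similar genes, many of them in tandem clusters, and members of such clusters are known to respond to stress and to symbiotic signals.

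The genes described here are 4 chalcone synthase genes of the legume Lotus japonicus that lie near each other on chromosome 2: LotjaGi2g1v0446700, LotjaGi2g1v0447000, LotjaGi2g1v0449400 and LotjaGi2g1v0450100. They are 4 of the 33 entries described as chalcone synthase in a gene table of 33994 entries. All 4 were among the 14 chalcone synthase entries that passed the filter on low values. They were chosen with their FPKM values in all 6 groups in view, so those values are given as a description without a test. FPKM is the number of fragments scaled to transcript length and to library size, so it allows levels to be compared between genes.

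Shoots were taken from plants of 2 lines labelled MYB36 line1 and line2, called line 1 and line 2 here, and from wild-type (WT) plants. The series describes the lines as knockouts of LjMYB36, the gene of a MYB transcription factor, and does not give the alleles. Salt plants received NaCl in steps of 50 mM every 4 days up to 100 mM and spent 2 days at that level. Control plants had the same Hornum solution with no added NaCl. All plants were harvested at 34 days, 4 hours after the lights came on, and each of the 6 groups has 3 libraries labelled as biological replicates, 18 libraries in all.

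Reads recovered from the FPKM values and gene lengths summed to between 42125949 and 101713201 per library. The shoot markers were high in every library, with 13980 to 21895 FPKM summed over 3 rubisco small chain genes. The 4 leghemoglobin genes of nodules reached at most 0.257 FPKM, and the 5 Casparian strip membrane protein genes of the root endodermis at most 0.906. Of 5 genes described as MYB36, none lost its signal in both lines, and the highest, LotjaGi4g1v0091600, had 2.33 to 5.47 FPKM in line 1 salt, 2.16 to 3.40 in line 2 salt and 0.727 to 0.987 in WT salt. In control it had 3.55 to 5.04 FPKM in line 1, 3.67 to 4.58 in line 2 and 6.05 to 6.60 in WT. The libraries also varied within the groups. A first component with 30.8% of the within-group variance gave 9 libraries an upper and 9 a lower score (the upper and lower set). This split comes from the data and not from a label. Scores were taken on deviations from the group means, so each group holds both signs by construction. WT control replicate 3 is in the upper set with a score of 0.0097, close to the cut.

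The 4 genes spanned 231284 bases in the coordinates of the deposited table, for which the sources used here name no genome build. LotjaGi2g1v0446700 (94134378 to 94136440, plus strand) carries the description "Chalcone synthase". The other 3 are described as chalcone synthase 4: LotjaGi2g1v0447000 (94143205 to 94145226, plus strand), LotjaGi2g1v0449400 (94312600 to 94319910, minus strand) and LotjaGi2g1v0450100 (94363854 to 94365661, plus strand). The first pair stands 6764 bases apart, a gap of 167373 bases follows, and the last 2 are separated by 43943 bases. By overlap with the RefSeq annotation of LjGifu_v1.2, the model of LotjaGi2g1v0449400 covered 2 coding genes and each of the other 3 models covered 1. The FPKM of LotjaGi2g1v0449400 may thus join the reads of 2 genes, whose strand and product were not checked. The genes are similar, and nothing in the sources used here says how reads shared by similar copies were counted, so values of single copies are uncertain to that extent.

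All 4 genes shared one pattern. They were highest in WT control, lowest in WT salt and intermediate in both lines, whose salt and control libraries lay closer together than those of WT. WT plants thus spanned the whole range, and the line libraries lay within it. On a log2 scale the line group means of LotjaGi2g1v0446700 and LotjaGi2g1v0450100 lay nearer to WT control. Those of LotjaGi2g1v0447000 and LotjaGi2g1v0449400 lay nearer to WT salt.

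LotjaGi2g1v0446700 had the highest FPKM of the 4 genes in every library except replicates 2 and 3 of WT salt, where LotjaGi2g1v0447000 was higher. In salt it had 17.9, 23.0 and 28.6 FPKM in line 1, 31.8, 23.4 and 27.8 FPKM in line 2, and 4.94, 3.06 and 2.56 FPKM in WT. In control it had 26.3, 24.4 and 26.5 FPKM in line 1, 21.9, 26.2 and 25.1 FPKM in line 2, and 72.4, 68.4 and 117.8 FPKM in WT. The 12 line libraries formed one band that overlapped between lines and conditions, and neither WT group touched that band. LotjaGi2g1v0446700 averaged 3.52 FPKM in WT salt and 86.2 FPKM in WT control, which is 24.5-fold lower in salt.

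LotjaGi2g1v0447000 had the lowest ratios of mean FPKM between the lines and WT in salt, 2.15 for line 1 and 2.02 for line 2. Its salt values were 5.38, 6.54 and 9.74 FPKM in line 1, 6.46, 6.32 and 7.55 FPKM in line 2, and 2.91, 3.06 and 4.10 FPKM in WT. Its control values were 8.45, 5.95 and 7.18 FPKM in line 1, 4.68, 5.83 and 5.85 FPKM in line 2, and 35.0, 26.5 and 49.1 FPKM in WT. The highest WT salt library lay just below the lowest line library, while the lowest WT control library stood far above every line library. Its mean was 3.36 FPKM in WT salt and 36.9 FPKM in WT control, 11.0-fold lower in salt.

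LotjaGi2g1v0449400 had the lowest mean FPKM of the 4 genes in every group except WT salt. FPKM divides by length, and its model, at 2679 bases, is the longest of the 4. In WT control its reads (3833, 1510 and 4679) exceeded those of LotjaGi2g1v0450100 (2654, 1212 and 3273). In salt LotjaGi2g1v0449400 reached 2.54, 2.59 and 6.65 FPKM in line 1, 1.84, 2.44 and 2.73 FPKM in line 2, and 1.04, 0.90 and 1.33 FPKM in WT. In control it reached 1.46, 1.87 and 2.28 FPKM in line 1, 1.65, 1.56 and 2.14 FPKM in line 2, and 16.1, 11.9 and 24.0 FPKM in WT. Replicate 3 of line 1 salt stood apart from the other 2 libraries of its group. The mean was 1.09 FPKM in WT salt and 17.3 FPKM in WT control, 15.9-fold lower in salt.

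LotjaGi2g1v0450100 came nearest to silence in salted WT shoots. In salt it had 6.73, 8.05 and 7.73 FPKM in line 1, 11.5, 7.04 and 6.50 FPKM in line 2, and 0.462, 0.0174 and 1.17 FPKM in WT. The WT salt values rest on 44, 2 and 141 reads. In control it had 8.54, 8.80 and 7.14 FPKM in line 1, 8.27, 9.07 and 7.37 FPKM in line 2, and 20.6, 17.6 and 30.9 FPKM in WT. The line libraries again formed one overlapping band between the WT groups. The mean was 0.550 FPKM in WT salt and 23.1 FPKM in WT control, 41.9-fold lower in salt. Without replicate 3 of WT salt its mean was 0.240 FPKM, 96.2-fold lower than in WT control.

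**Figure D1:**
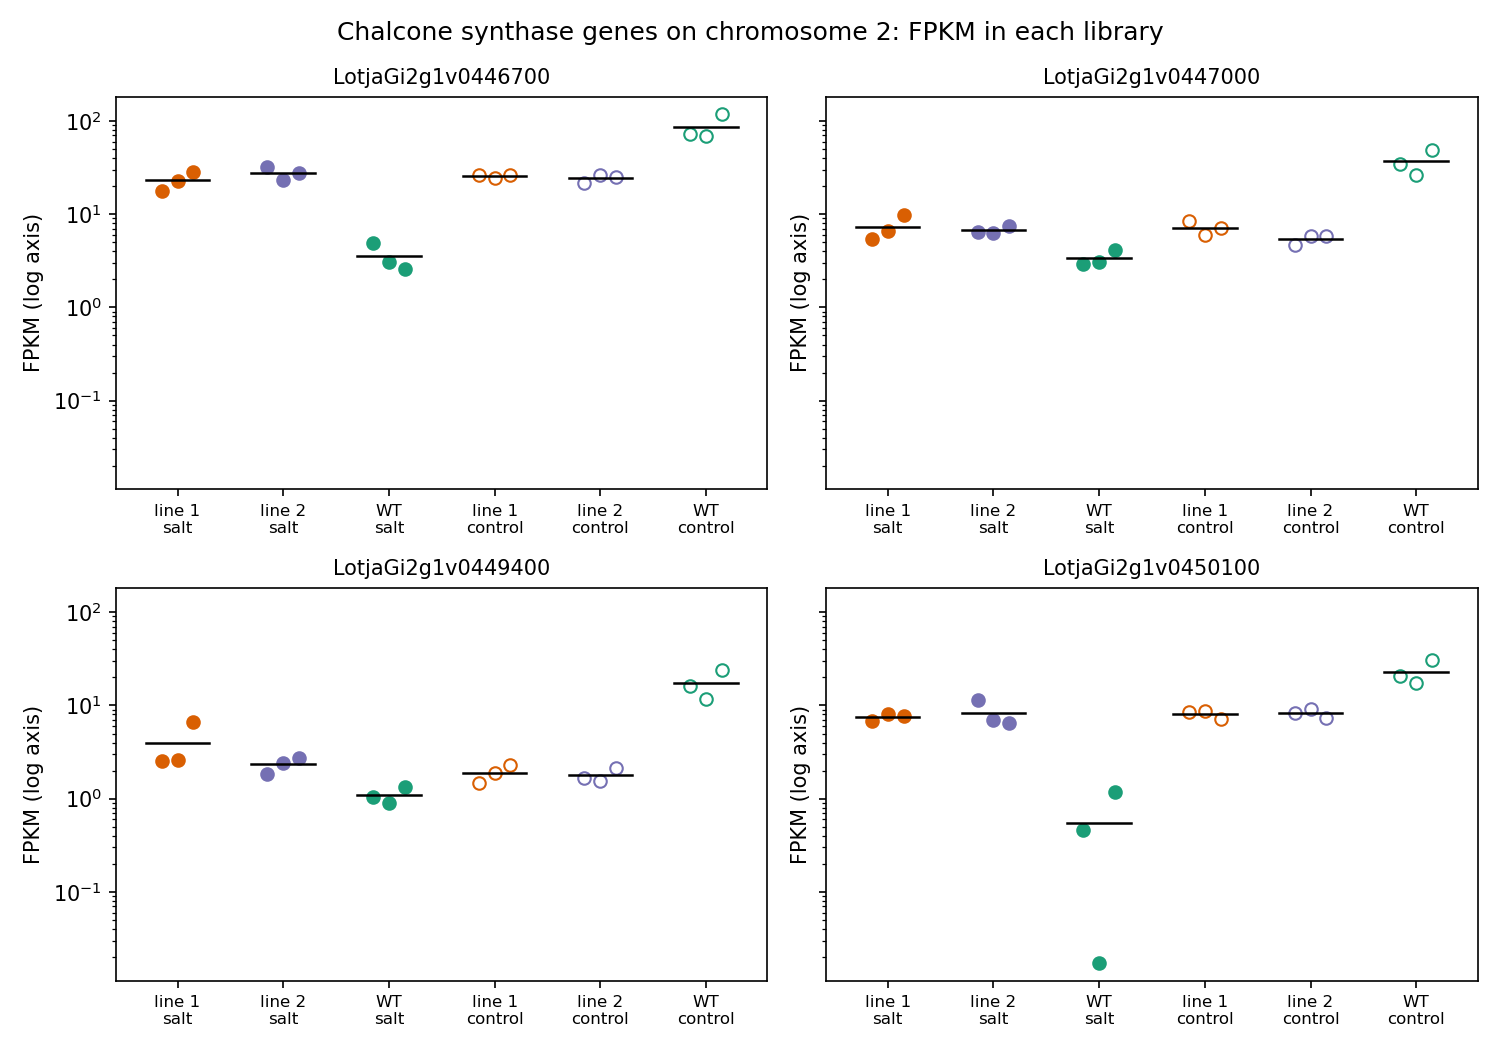
FPKM of the 4 chalcone synthase genes in each of the 18 libraries, on a log axis shared by the 4 panels; points are libraries (filled in salt, open in control), bars are group means. WT salt lies lowest and WT control highest in every panel, and LotjaGi2g1v0450100 has 0.0174 FPKM in 1 WT salt library.

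The first comparison asks how salt changed the genes in WT. On the scale of log2(FPKM + 0.5) the salt-minus-control difference was -4.43 (SE 0.22) for LotjaGi2g1v0446700, -3.24 (SE 0.22) for LotjaGi2g1v0447000, -3.44 (SE 0.29) for LotjaGi2g1v0449400 and -4.61 (SE 0.31) for LotjaGi2g1v0450100. All 4 were lower in every salt library than in any control library. Among the 20433 genes tested, 15.9% lay lower without overlap in this comparison, and the count is a property the genes were chosen by. The median difference was -3.93 over the 4 genes and 0.013 over all tested genes. Taken within the lower set (2 salt libraries and 1 control library) the 4 differences ran between -4.51 and -3.13, and within the upper set (1 and 2 libraries) between -4.63 and -3.42. The value of LotjaGi2g1v0450100 depends on how near-zero values are handled, being -3.99 with a pseudocount of 1 and -6.66 with limma voom on the recovered reads. In whole shoots, fewer cells of a type and less RNA per cell cannot be told apart.

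In the lines the same salt treatment went with small differences. In line 1 the salt-minus-control difference was -0.17 for LotjaGi2g1v0446700, -0.02 for LotjaGi2g1v0447000 and -0.11 for LotjaGi2g1v0450100, and salt and control libraries overlapped for these 3. LotjaGi2g1v0449400 differed by 0.79 (SE 0.29) in line 1 and its salt libraries all lay above the control libraries, where 14.1% of tested genes did so. Without replicate 3 of line 1 salt that difference was 0.39. Line 1 salt replicate 3 also had the lowest component score of all libraries, and the part of that score in the difference was not tested. In line 2 the 4 differences were 0.17, 0.29, 0.31 and -0.02 in the order of the genes on the chromosome, with SEs of 0.22 to 0.31. There LotjaGi2g1v0447000 alone separated, with salt above control, against 17.2% of tested genes.

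The next comparison sets the lines against WT without salt. In control, line 1 minus WT was -1.68 (SE 0.22) for LotjaGi2g1v0446700, -2.25 (SE 0.22) for LotjaGi2g1v0447000, -2.87 (SE 0.29) for LotjaGi2g1v0449400 and -1.41 (SE 0.31) for LotjaGi2g1v0450100. Line 2 minus WT was -1.76, -2.61, -2.92 and -1.39 for the same genes, with the same SEs. In mean FPKM the line values were between 2.80-fold lower (LotjaGi2g1v0450100, line 2) and 9.72-fold lower (LotjaGi2g1v0449400, line 2) than WT. All 4 genes lay below WT without overlap in each line, where 14.2% of tested genes did so in line 1 and 18.6% in line 2. WT control replicate 3 had the highest FPKM of its group for all 4 genes. Without it the line 1 differences were still negative, with -1.43 for LotjaGi2g1v0446700 and -1.18 for LotjaGi2g1v0450100.

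With salt the order turned round. In salt, line 1 minus WT was 2.58 (SE 0.22) for LotjaGi2g1v0446700, 0.97 (SE 0.22) for LotjaGi2g1v0447000, 1.36 (SE 0.29) for LotjaGi2g1v0449400 and 3.09 (SE 0.31) for LotjaGi2g1v0450100. Line 2 minus WT was 2.84, 0.92, 0.83 and 3.19 for these genes. In mean FPKM LotjaGi2g1v0450100 was 13.6-fold higher in line 1 and 15.2-fold higher in line 2 than in WT salt, while LotjaGi2g1v0447000 was 2.15-fold and 2.02-fold higher. Without WT salt replicate 3 the ratios of LotjaGi2g1v0450100 were 31.3 for line 1 and 34.8 for line 2. Without line 1 salt replicate 3 the ratio of LotjaGi2g1v0449400 in line 1 was 2.36, against 3.61 with it. Each of the 4 genes lay above WT without overlap in both lines, where 17.8% of tested genes did so for line 1 and 19.7% for line 2. Both lines are compared with the same 3 WT salt libraries, and the control comparisons likewise share the WT control libraries.

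The interaction, taken as the mean salt difference of both lines less the WT salt difference, was 4.43 (SE 0.27) for LotjaGi2g1v0446700, 3.38 (SE 0.27) for LotjaGi2g1v0447000, 3.99 (SE 0.36) for LotjaGi2g1v0449400 and 4.54 (SE 0.38) for LotjaGi2g1v0450100. Its median over all tested genes was 0.0. The 2 lines differed little from each other. In control LotjaGi2g1v0447000 was lower in line 2 than in line 1 without overlap (difference -0.36, SE 0.22), where 7.5% of tested genes were, and the other 3 genes overlapped. In salt all 4 genes overlapped between the lines, against 15.4% of tested genes that did not, and the differences ran between -0.53 and 0.27.

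The 4 genes fell into pairs by the size of their differences. LotjaGi2g1v0446700 and LotjaGi2g1v0450100, the outermost of the 4 on the chromosome, had the larger salt differences in WT and the smaller line differences in control. LotjaGi2g1v0447000 and LotjaGi2g1v0449400, the inner 2, had the smaller salt differences in WT and the larger line differences in control. Over the 18 libraries the log2 levels of each pair correlated at a Pearson r of 0.96, and the 4 cross pairs between 0.70 and 0.84. The libraries share the 6 groups, so these values describe mainly the group means. For deviations from the group means r was 0.77 for the inner pair, 0.24 for the outer pair and between 0.23 and 0.50 for the 4 cross pairs, so within groups the outer pair was no more alike than the cross pairs.

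The makeup of the summed chalcone synthase signal changed with these differences. The 4 genes together had 41.8 ± 10.2 FPKM in line 1 salt, 45.1 ± 6.22 in line 2 salt, 8.51 ± 1.28 in WT salt, 43.0 ± 1.88 in line 1 control, 39.8 ± 3.11 in line 2 control and 163 ± 51.5 in WT control (SD, n = 3 each). LotjaGi2g1v0446700 gave 41.4% ± 12.5 of that sum in WT salt and 52.8% ± 2.40 in WT control, against 55.5% to 61.2% on average in the line groups. LotjaGi2g1v0447000 gave 39.8% ± 7.51 in WT salt and 22.6% ± 1.51 in WT control. LotjaGi2g1v0450100 gave 5.99% ± 6.33 in WT salt, where its libraries ran between 0.247% and 12.8%, and 14.1% ± 0.180 in WT control. In WT salt no single gene held most of the sum in every library, whereas LotjaGi2g1v0446700 held over 50% in each library of the other 5 groups.

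**Figure D2:**
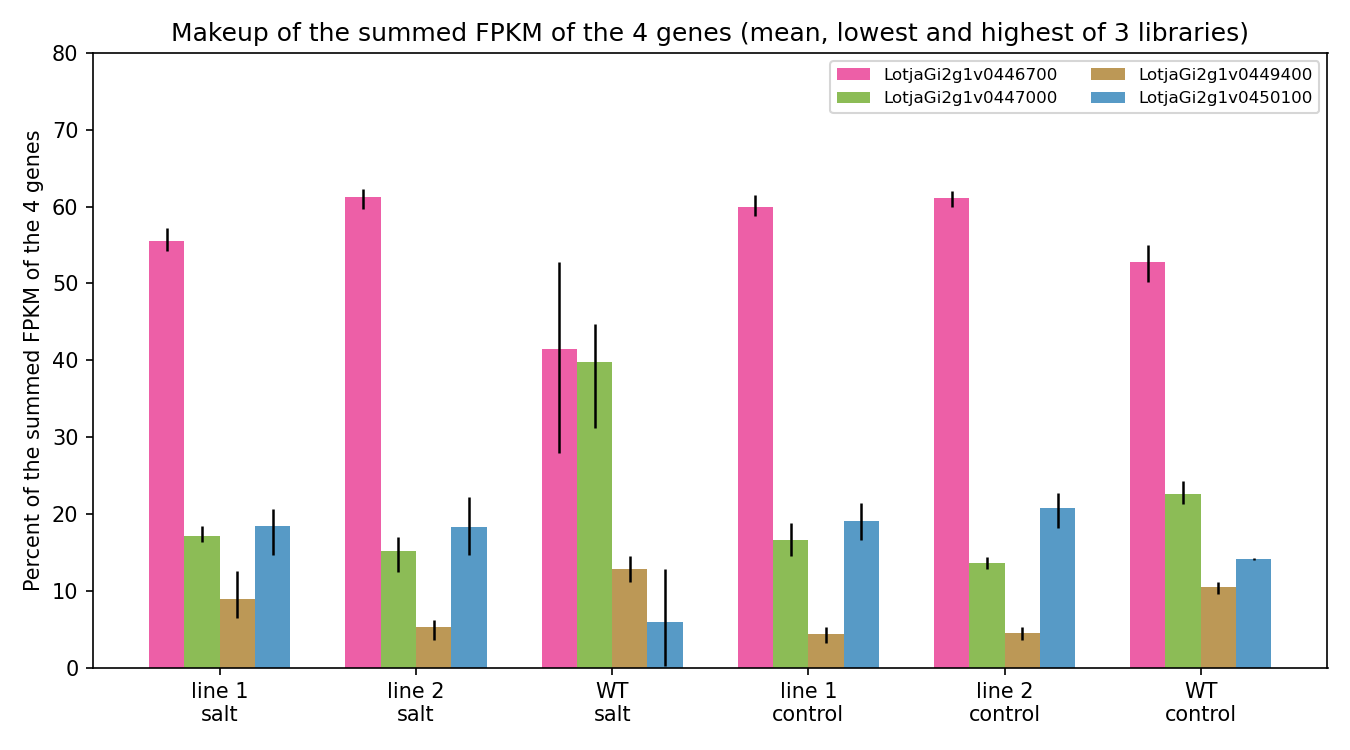
Percent of the summed FPKM of the 4 genes given by each gene, by group; bars are means of 3 libraries and black lines run between the lowest and the highest library. LotjaGi2g1v0447000 reaches 39.8% in WT salt, against 22.6% in WT control and 13.7% to 17.1% in the line groups.

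Of the other chalcone synthase entries, 10 passed the filter and were tested with limma. The 19 that did not pass reached at most 0.106 FPKM in any library, and 14 of those are models of 150 bases with no reads. In WT, 9 of the 10 fell with salt and none rose, where 16.3% of all tested genes were called in either direction. Among them were LotjaGi1g1v0470800 (log2 difference -3.87, SE 0.21, limma adjusted p = 2.26e-09) and LotjaGi1g1v0470600 (-2.95, SE 0.14, limma adjusted p = 1.01e-09) on chromosome 1. The calls of LotjaGi3g1v0078700 (-0.50) and LotjaGi4g1v0372400 (-0.86) were lost when WT control replicate 3 was left out, and also without 2 of the WT salt libraries in turn.

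The exception was the most abundant chalcone synthase gene. LotjaGi1g1v0635000 on chromosome 1 had 321 to 719 FPKM over the 18 libraries. It averaged 461 ± 95.5 FPKM in WT salt and 565 ± 134 FPKM in WT control (SD, n = 3), and its salt difference in WT was -0.29 (SE 0.21, limma adjusted p = 0.448). It passed the test in none of the 8 comparisons of salt, line and their interaction. Its level sets the total: the 4 genes were 1.67% ± 0.283 of all chalcone synthase FPKM in WT salt and 18.1% ± 5.62 in WT control. With LotjaGi1g1v0635000 left out of the total, they were 25.3% ± 3.59 in line 1 salt, 23.1% ± 0.157 in line 2 salt, 15.3% ± 1.51 in WT salt and 47.1% ± 1.97 in WT control.

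In control, 5 of these 10 genes were lower and 1 was higher in line 1 than in WT, and 5 were lower and 2 were higher in line 2. The share of all tested genes called was 11.7% for line 1 and 12.6% for line 2. In salt, 7 were higher and 0 lower than WT in each line, where 16.0% of tested genes were called for line 1 and 25.1% for line 2. LotjaGi1g1v0470800 exceeded WT by 2.14 in line 1 and 2.10 in line 2 on the log2 scale (each with a limma adjusted p of 1.55e-06). Higher in control were LotjaGi2g1v0449300, in each line, and LotjaGi3g1v0078700, in line 2 (0.52, SE 0.16, limma adjusted p = 0.0349). LotjaGi2g1v0449300 is described as chalcone synthase 4 and stands next to LotjaGi2g1v0449400 on the same strand.

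LotjaGi2g1v0449300 was higher than WT in control, with log2 differences of 0.78 for line 1 (SE 0.14, limma adjusted p = 0.00129) and 0.94 for line 2 (SE 0.14, limma adjusted p = 2.03e-04), where the 4 genes were lower. It had 56.9 ± 2.53 FPKM in line 1 control, 63.9 ± 6.72 in line 2 control and 33.4 ± 6.69 in WT control (SD, n = 3). In salt it had 45.4 ± 4.00 FPKM in line 1, 64.2 ± 10.2 in line 2 and 17.3 ± 1.67 in WT. In WT with salt it fell by 0.92 on the log2 scale (SE 0.14, limma adjusted p = 1.22e-04). Its model also covered 2 RefSeq coding genes. LotjaGi2g1v0446800, which lies between LotjaGi2g1v0446700 and LotjaGi2g1v0447000 on the opposite strand, followed the 4 genes. It had 2.26 ± 0.695 FPKM in WT salt and 19.7 ± 5.36 FPKM in WT control, fell by 2.86 on the log2 scale with salt in WT (SE 0.22, limma adjusted p = 7.25e-08) and was lower than WT in control by log2 differences of -1.35 for line 1 (limma adjusted p = 5.34e-04) and -1.45 for line 2 (limma adjusted p = 2.32e-04).

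**Figure D3:**
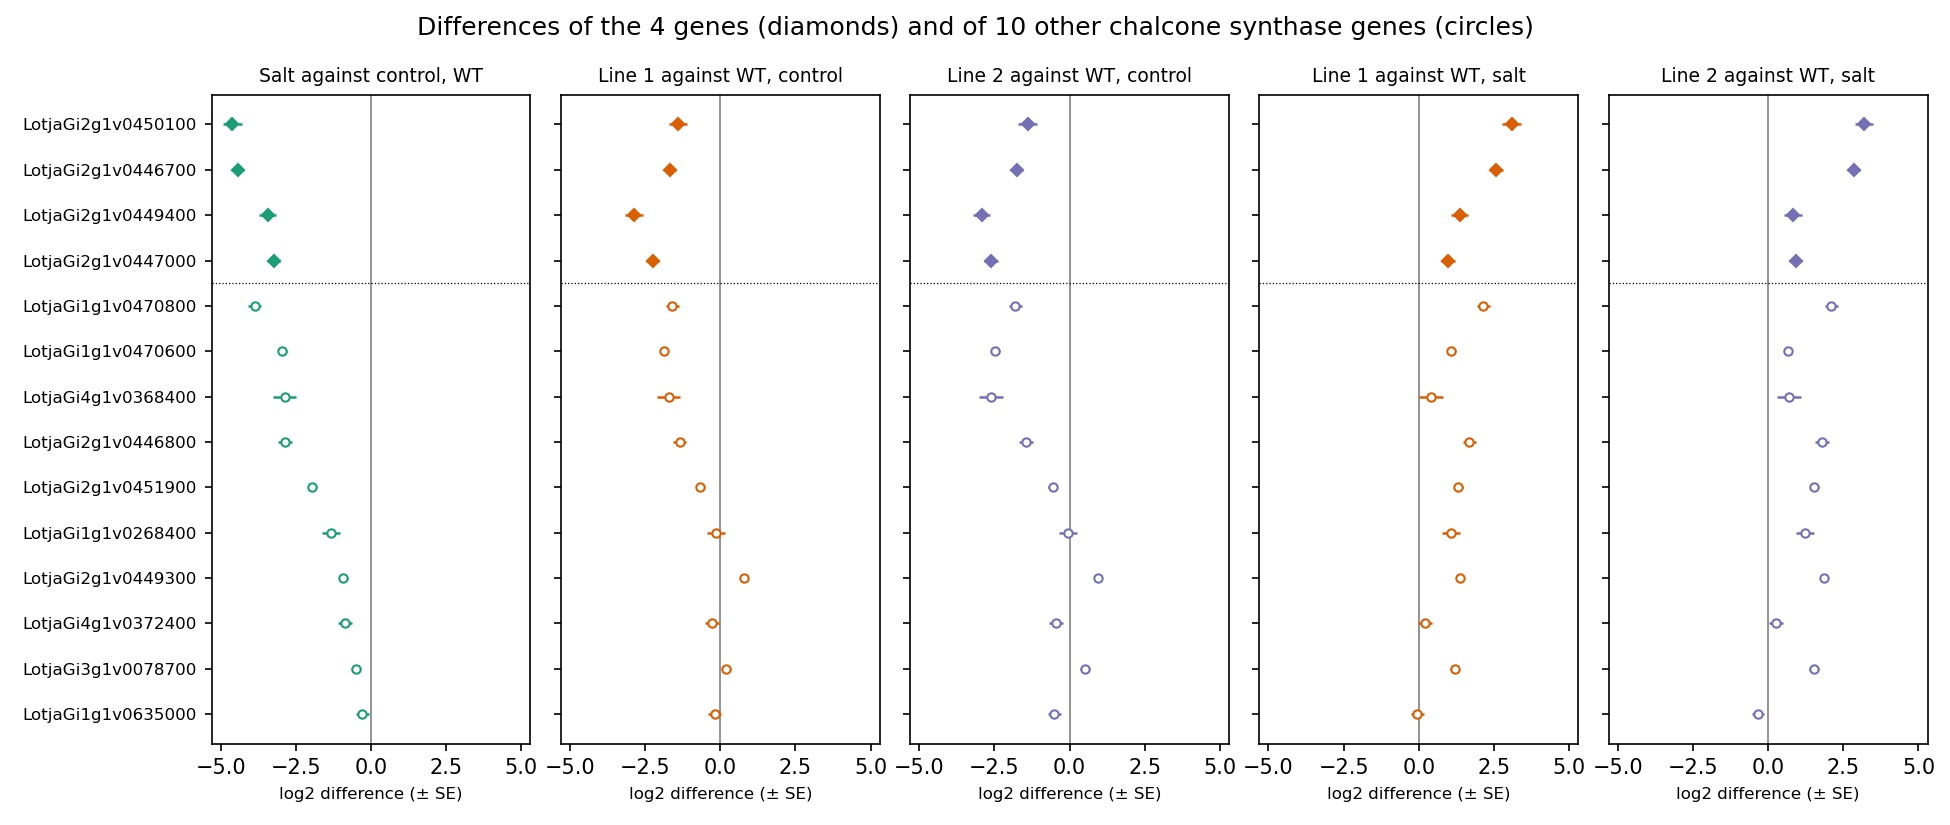
Differences on the log2(FPKM + 0.5) scale with SE for the 4 genes (diamonds, above the dotted line) and the 10 other tested chalcone synthase genes (circles), one panel for each comparison. LotjaGi2g1v0449300 lies right of 0 in both control panels, where the 4 diamonds lie left of it, and LotjaGi1g1v0635000 stays near 0.

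Most neighbours of the 4 genes did not pass the test with salt in WT. Within 100 kb of them, 46 other genes were tested, 2 of them the chalcone synthase genes just named. Of the 44 that are not described as chalcone synthase, 7 fell and 2 rose with salt in WT, where 16.3% of all tested genes were called, and the median difference was -0.10. In control 4 of the 44 were lower and 2 higher in line 1 than in WT, and 4 lower and 3 higher in line 2, against 11.7% and 12.6% of all tested genes. In salt 3 were lower and 8 higher in line 1, and 3 lower and 9 higher in line 2, against 16.0% and 25.1%. A 4-coumarate--CoA ligase gene, LotjaGi2g1v0450000, stands directly before LotjaGi2g1v0450100 and encodes an enzyme that makes the substrate of chalcone synthase. Its level fell by 0.95 on the log2 scale with salt in WT (SE 0.09, limma adjusted p = 9.07e-07) and was lower than WT in control by log2 differences of -0.59 for line 1 (limma adjusted p = 3.35e-04) and -0.81 for line 2 (limma adjusted p = 1.22e-05). In salt LotjaGi2g1v0450000 averaged 31.1 ± 1.22 FPKM in line 1, 25.2 ± 3.22 in line 2 and 24.0 ± 0.635 in WT (SD, n = 3). LotjaGi2g1v0450600, described as geraniol 8-hydroxylase, a cytochrome P450, fell by 3.21 on the log2 scale with salt in WT (SE 0.17, limma adjusted p = 2.19e-09) and was higher than WT in salt by 3.23 in line 1 (limma adjusted p = 1.96e-09). In control its line 1 difference was 0.15 (SE 0.17, limma adjusted p = 0.664). A further tested chalcone synthase gene of chromosome 2, LotjaGi2g1v0451900 (94506995 to 94518786), lies beyond the 100 kb. It had the same order of group means, with 8.21 FPKM in WT salt, 33.8 in WT control and 20.8 to 24.9 in the line groups.

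**Figure D4:**
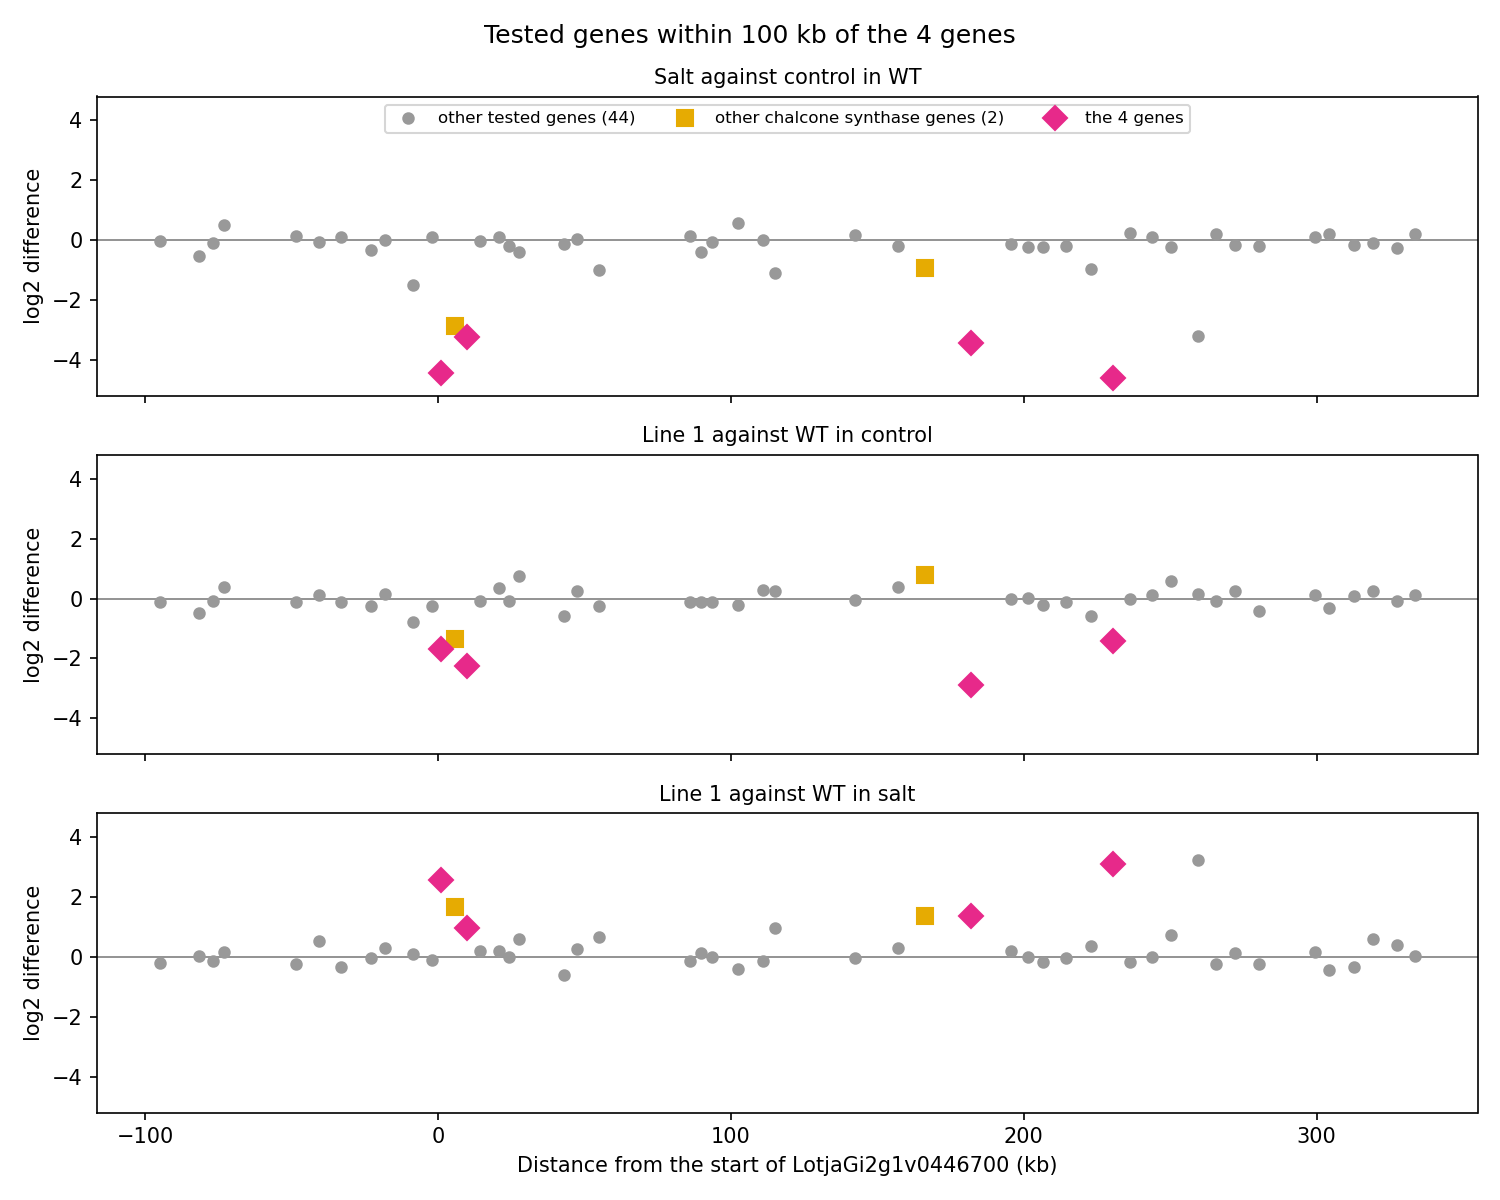
Log2 differences of the tested genes within 100 kb of the 4 genes, against distance in kb from the start of LotjaGi2g1v0446700, for 3 comparisons; diamonds are the 4 genes, squares the 2 other chalcone synthase genes, grey points the 44 remaining genes. Most grey points lie near 0, and the grey point far from 0 in the upper and lower panels is LotjaGi2g1v0450600.

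The remaining pathway was taken as a list of 116 entries by description, the 4 genes left out, of which 68 were tested. With salt in WT 33 fell and 5 rose, which is 55.9% of the list, where 16.3% of all tested genes were called. Upstream of chalcone synthase, phenylalanine ammonia-lyase, cinnamate hydroxylase and 4-coumarate--CoA ligase genes were mixed, with 5 down and 4 up of 14. Beside and after it, 5 of 7 deoxychalcone synthase genes, 10 of 15 isoflavonoid genes and 2 of 3 chalcone isomerase genes fell, and none of these rose. Among the isomerase calls, that of the isomerase-like gene LotjaGi1g1v0307100 was lost with quantile normalization. It was also lost without WT salt replicate 1 or 2, or WT control replicate 1 or 3. The flavonol and anthocyanin branch had 2 down and 1 up of 19, or 15.8%, which is near the share of all tested genes. Both of its down calls depended on single libraries. That of LotjaGi1g1v0327900 was lost without WT salt replicate 1 or WT control replicate 3. That of LotjaGi4g1v0331000 was lost with no filter and with only the groups compared. It was also lost without any 1 of the WT salt libraries, or WT control replicate 1 or 2. In control line 1 had 21 lower and 8 higher and line 2 had 23 lower and 11 higher than WT, or 42.6% and 50.0% of the list, where 11.7% and 12.6% of all tested genes were called. In salt line 1 had 34 higher and 4 lower and line 2 had 38 higher and 3 lower, or 55.9% and 60.3%, where 16.0% and 25.1% of all tested genes were called. The flavonol and anthocyanin branch differed from WT in both directions. In control line 1 had 1 higher and 2 lower there (15.8%), and line 2 had 3 higher and 3 lower (31.6%). In salt line 1 had 3 higher and 4 lower (36.8%), and line 2 had 3 higher and 3 lower (31.6%). The interaction was positive for 31 and negative for 0 of the 68, where 8.16% of all tested genes were called, and the 31 held 0 of the 19 flavonol and anthocyanin genes.

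In line 1 salt itself raised 6 and lowered 3 of the 68 genes, where 8.61% of all tested genes were called, and in line 2 it raised 5 and lowered 0, where 8.66% were called. Leaving out replicate 3 of line 2 salt, or replicate 3 of line 2 control, left 3 calls in line 2.

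The last description gives the 8 tested genes with a Swiss-Prot name whose levels over the 18 libraries were most like the mean of the 4. The likeness is Pearson's r on log2(FPKM + 0.5) against the mean of the 4 genes, and it describes mainly the 6 group means. The closest was the phenylalanine ammonia-lyase gene LotjaGi1g1v0690200 (r = 0.989), at the entry to the phenylpropanoid pathway, with 12 FPKM in line 1 salt, 12.9 in line 2 salt, 3.80 in WT salt, 11.6 in line 1 control, 11.9 in line 2 control and 31.9 in WT control on average. Next came an isoflavone reductase homolog, LotjaGi4g1v0146200 (r = 0.987), the chalcone synthase 2 gene LotjaGi1g1v0470800 (r = 0.986) and the deoxychalcone synthase gene LotjaGi1g1v0006500 (r = 0.978). LotjaGi1g1v0006500, whose product acts together with chalcone synthase, averaged 5.53 ± 1.08 FPKM in WT salt and 123 ± 35.0 FPKM in WT control (SD, n = 3). The other 4 of the closest 8 were phenylalanine ammonia-lyase LotjaGi1g1v0690300 (r = 0.976), LotjaGi2g1v0446800 (r = 0.971), the oxysterol-binding protein-related gene LotjaGi1g1v0578700 (r = 0.969) and the phospholipase D gene LotjaGi2g1v0430200 (r = 0.968). These last 2, which belong to lipid transport and lipid breakdown, and the isoflavone reductase homolog are not on the pathway list. With r taken on deviations from the group means the closest gene was another, LotjaGi6g1v0181100 (r = 0.91, and 0.296 over the libraries themselves), described as a PH, RCC1 and FYVE domain protein. After it came LotjaGi1g1v0006500 (0.909), the methylthioribose kinase gene LotjaGi1g1v0405100 (0.898), LotjaGi1g1v0470800 (0.895) and the isoflavone reductase gene LotjaGi2g1v0388100 (0.895). The last of the closest 8 were LotjaGi2g1v0289200 (protein SRG1, 0.891), LotjaGi3g1v0080900 (a lectin receptor-like kinase, 0.88) and the deoxychalcone synthase gene LotjaGi1g1v0006200 (0.871).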

How the data were processed

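The authors deposited 1 table of FPKM values per gene for 18 shoot libraries, made from stranded poly(A) libraries per the labels' protocols. The submitters' processing notes name fastp, featureCounts 1.5.0-p3 and DESeq2 1.20.0. Which aligner, build and strand setting were used is not given in the sources used here. Multiplied by gene length, 100% of nonzero FPKM values came within 0.05 of a whole read. No pair of replicates agreed within sampling noise. Labels do not say whether replicates came from separate pots, so p-values measure only the spread between these samples.

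The 20433 genes that reached 1 FPKM in 3 or more libraries were fitted with limma 3.58.1 (R 4.3.3) on log2(FPKM + 0.5) over 6 groups, with eBayes and a mean-variance trend and 12 residual degrees of freedom. This scale understates changes of low genes. Two-sided p-values were adjusted over all tested genes by Benjamini-Hochberg, with a threshold of 0.05. The script was tested on simulated data. The 4 genes and all lists were chosen with earlier results of these data known. Named genes were all tested chalcone synthases, genes within 100 kb, the 8 most alike by correlation, and the 3 genes of smallest p of each pathway role, of which the text gives a part. Alternatives were other pseudocounts, filters, scalings and fits, a replicate block and leaving out each library; the voom fit and the 2 library sets were chosen after seeing the data. Of the table's identifiers, 0 were found in the RefSeq table, and models were compared by overlap: 84.5% of 18699 tested models held at least 90% of a RefSeq coding gene.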

Additional observations from a re-analysis of the deposited data

Results flagged for a closer look

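The interaction is the mean salt difference of both lines less the WT salt difference. It passed the limma test for 8 of the 10 chalcone synthase genes tested beside the 4, and for 8.16% of all tested genes. It was 3.81 for LotjaGi1g1v0470800, 3.13 for LotjaGi2g1v0446800, 3.03 for LotjaGi1g1v0470600 and 2.72 for LotjaGi4g1v0368400 on the log2 scale (limma adjusted p between 3.32e-08 and 0.00115). It was 2.03 for LotjaGi2g1v0451900, 1.01 for LotjaGi3g1v0078700 and 0.75 for LotjaGi2g1v0449300 (limma adjusted p = 1.91e-06, 0.00226 and 0.00912). The calls of LotjaGi3g1v0078700 (0.84 and 1.13) and LotjaGi2g1v0449300 (0.54 and 0.68) were lost in the lower and the upper set alone. That of LotjaGi4g1v0368400 (2.92) was lost in the lower set alone. For LotjaGi1g1v0268400 the interaction was 1.25 (limma adjusted p = 0.0437), and that call was lost when any 1 of the 6 WT libraries was left out (1.21 to 1.31) or any of replicate 1 of line 1 salt, replicates 1 and 3 of line 2 salt, of line 1 control and of line 2 control (1.12 to 1.24), with the replicate block (1.25), with no filter (1.25), with a pseudocount of 1 (0.93), with quantile normalization (1.03), with limma voom (2.02) and in each library set alone (1.42 and 1.00).

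Among the 4 genes, some salt libraries of the lines moved opposite to those of WT. LotjaGi2g1v0449400 had a salt difference of 0.79 (SE 0.29) in line 1 and 0.31 (SE 0.29) in line 2, against -3.44 in WT. Its salt-to-control ratio of mean FPKM in line 1 was 2.10, and 1.37 without line 1 salt replicate 3. LotjaGi2g1v0447000 had 0.29 (SE 0.22) in line 2, against -3.24 in WT. Every salt library of these groups lay on the opposite side of its control mean from the WT salt libraries. The share of all tested genes that did so was not counted. By the stricter measure of no overlap, salt libraries lay above control for 14.1% of tested genes in line 1 and 17.2% in line 2. LotjaGi2g1v0449400 in line 1 and LotjaGi2g1v0447000 in line 2 met that measure, and LotjaGi2g1v0449400 in line 2 did not. The differences between genotypes were not tested for these genes, because their values chose them.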

How the results depend on the processing

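The counts of pathway genes called kept within 1.5 times their value under every alternative but the following. With the lower set alone the count was 25 for salt in WT, 0 for salt in line 1, 1 for salt in line 2, 9 for line 1 and 22 for line 2 against WT in control. For salt in line 2, where the main count was 5, it was 10 with only the groups compared, 12 with the library set as a term, 8 with limma voom and 0 with the upper set alone. In these fits by set a group holds 1 or 2 libraries, and a lone library is assumed to vary like the other groups. The count of 3 for salt in line 2, without replicate 3 of line 2 salt or of line 2 control, also lay outside 1.5 times. Leaving out 1 library at a time gave 32 to 37 for salt in WT, 6 to 8 for salt in line 1, 3 to 6 for salt in line 2, 23 to 29 and 30 to 32 for line 1 and line 2 in control, 34 to 41 and 34 to 38 in salt, and 29 to 33 for the interaction.

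Replicate numbers did not pair the libraries: 14 of 45 same-numbered pairs correlated above 0.1, and 8 of 18 libraries correlated best with their own number. With the replicate block the counts were 38, 8 and 6 for salt in WT, line 1 and line 2, 29 and 34 for line 1 and line 2 in control, 42 and 41 in salt, and 31 for the interaction, and the interaction call of LotjaGi1g1v0268400 was lost (1.25). Fitting only the groups compared could not be applied to the interaction. No direction of a called result was turned. The named genes' results, called or not, were counted per gene, comparison and alternative. Of these, 1584 kept their direction and whether they were called, and 108 calls lost significance. The other 16 were not called in the main fit and changed direction. For LotjaGi2g1v0451900, the line 2 call in control was lost without WT control replicate 3 (-0.36) or line 2 control replicate 1 (-0.46), and for LotjaGi3g1v0078700 (0.52) without WT control replicate 1 or 2 or line 2 control replicate 2 or 3 (0.42 to 0.51). Depth limits LotjaGi2g1v0450100 in WT salt, at 2 reads in 1 library.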
